A study of Mus musculus with 4 samples.

Results

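Ptgs2, Zfp36 and 7 other genes known as quickly induced feedback or effector genes of inflammatory signalling were followed in the mouse dentate gyrus (DG) after electroconvulsive stimulation (ECS). The 9 genes were Ptgs2, Zfp36, Zfp36l1, Zfp36l2, Nfkbia, Trib1, Socs3, Ier3 and Pim1. All probe sets annotated to 1 of these symbols alone were taken, which gave 20 of the 20380 single-symbol probe sets on the array and 9 of 12393 genes. Gene expression had been measured on 4 Affymetrix Mouse Genome 430A 2.0 arrays, 1 for each of 4 groups, and each array held the pooled DG RNA of 3 mice. The groups were single ECS (DG taken 1 h later), 11 ECS (1 h after the last), 10 ECS (48 h after the last) and sham (1 h). The mice were of the C57Bl/6 strain by the labels, and by the study's methods male C57BL/6J or C57BL/6N, bought at 8 weeks of age. ECS was given through ear clips as a bilateral current of 25 mA lasting 1 s, at 100 pulses per s with a pulse width of 0.5 ms, under isoflurane, and the repeated groups had 4 sessions a week for up to 3 weeks. Sham mice had the same handling and anaesthesia with no current, in 1 session by the label. The repeated groups therefore differed from sham in the number of sessions and of anaesthesias as well as in ECS. The study's description of the RNA has all mice dissected 1 h after a session, which would make the last session of the 10 ECS group a sham session. The labels give only the 48 h.

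The 9 genes act at several points of inflammatory and stress signalling. Ptgs2 encodes cyclooxygenase-2, the inducible enzyme that turns arachidonic acid into the precursor of the prostaglandins. In the brain it is made mainly by excitatory neurons, and its mRNA is known to rise after seizures and synaptic activity. Most of the others are brakes on the signals that induce them. Zfp36 (tristetraprolin) and its relatives Zfp36l1 and Zfp36l2 bind AU-rich elements of short-lived mRNAs and speed their decay. Nfkbia encodes IκBα, which holds NF-κB in the cytoplasm. Socs3 blocks the kinases that signal below the gp130 cytokine receptors. Trib1 is a pseudokinase that brings C/EBP factors to a ubiquitin ligase. Pim1 is a serine/threonine kinase that is active as soon as it is made and is a known target of STAT factors. Ier3 is a small early response protein that acts on survival and on ERK signalling.

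Promoter sequences around the annotated starts are shown for 4 genes. They set the letters around the starts of Ptgs2 and Ier3, which responded to a single ECS by over 2-fold, beside those of Zfp36 and Nfkbia, which did not. Each runs 5′ to 3′ from 220 bases before to 30 bases after the start, in the RefSeq table of GRCm38.p6, with motif matches in capitals. The Ptgs2 window lies at chr1:150099811-150100060 on the plus strand, Ier3 at chr17:35821493-35821742 on the plus strand, Zfp36 at chr7:28379199-28379448 on the minus strand and Nfkbia at chr12:55492618-55492867 on the minus strand.
Ptgs2: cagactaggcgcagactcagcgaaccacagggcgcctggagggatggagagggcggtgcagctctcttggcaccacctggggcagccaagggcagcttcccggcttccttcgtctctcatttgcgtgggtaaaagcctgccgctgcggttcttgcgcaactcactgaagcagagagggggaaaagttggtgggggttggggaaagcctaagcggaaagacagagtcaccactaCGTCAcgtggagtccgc
Ier3: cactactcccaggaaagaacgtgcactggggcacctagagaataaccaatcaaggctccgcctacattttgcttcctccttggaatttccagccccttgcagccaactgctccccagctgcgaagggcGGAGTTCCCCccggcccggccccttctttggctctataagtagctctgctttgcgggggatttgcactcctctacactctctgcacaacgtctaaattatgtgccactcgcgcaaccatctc
Zfp36: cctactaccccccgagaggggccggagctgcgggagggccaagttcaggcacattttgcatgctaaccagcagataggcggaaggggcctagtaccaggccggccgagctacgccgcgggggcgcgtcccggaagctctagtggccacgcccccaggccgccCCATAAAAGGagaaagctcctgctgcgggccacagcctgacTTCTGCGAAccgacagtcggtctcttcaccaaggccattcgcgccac
Nfkbia: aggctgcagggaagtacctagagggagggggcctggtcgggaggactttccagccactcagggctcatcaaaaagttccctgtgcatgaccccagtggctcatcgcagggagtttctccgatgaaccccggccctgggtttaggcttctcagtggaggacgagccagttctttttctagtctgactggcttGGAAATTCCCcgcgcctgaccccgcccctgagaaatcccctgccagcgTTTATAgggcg
In Ptgs2 the capitals mark the short form of the cAMP response element (TGACG, read on the opposite strand) at bases 14 to 18 after the start. In Ier3 they mark a kappaB site, the sequence bound by NF-κB, at -92 to -83. In Zfp36 they mark a CArG box, the element of serum response factor, at -58 to -49 and a STAT site (TTCNNNGAA) at -17 to -9. In Nfkbia they mark a kappaB site at -29 to -20 and the letters of a TATA box (TATAAA, on the opposite strand) at 20 to 25. The marked stretch of Ptgs2 and the TATAAA match of Nfkbia thus lie after the annotated start and not upstream of it.

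The motifs were searched on both strands and occur in many promoters. Of 32851 RefSeq mouse promoter windows of the same 250 bases, 18.8% held the short form, 3.80% a kappaB site, 1.39% a CArG box, 6.87% a STAT site and 11.7% a TATA box. A full cAMP response element (TGACGTCA) was in 1.71%, an AP-1 site (TGANTCA) in 6.68% and an EGR site (GCGTGGGCG) in 0.566%. Every full cAMP response element also holds the short form. Windows were found for 7 of the 9 genes, Ptgs2, Zfp36, Socs3, Nfkbia, Zfp36l1, Pim1 and Ier3, with 2 windows for Pim1. Socs3 held a STAT site at -154 to -146, and Zfp36l1 an AP-1 site at -129 to -123 and a TATA box at -29 to -24. Neither Pim1 window held any of the 8 motifs. The full element and the EGR site were in none of the 8 windows. These are matches of letters and are no measure of binding.

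Signals are given as Microarray Suite 5.0 (MAS5) intensities on a linear scale. Ratios are log2 ratios between arrays for the same probe set, since levels cannot be compared between probe sets. The 25th percentile over all arrays, a signal of 12, served as the floor. Signals at or below it were set to it, and a ratio against an array at the floor is a bound. A gene was represented by its brightest probe set and counted as higher or lower at 2-fold, which is a size and not a test. Because each group had 1 array, no spread between arrays or mice could be measured and no test was possible. The error available was the SD of log2 ratios between probe sets of the same gene, which was 0.16 to 0.17 over the 4 comparisons for signals of at least 200, 0.25 to 0.28 for signals of 50 to 200, and 0.42 to 0.47 for dimmer ones. It covers probe sets only. The arrays also differed in level. Median signals were 69.3 on the sham array, 56.3 on the single ECS array, 62.4 on the 10 ECS array and 56.7 on the 11 ECS array, and the median gene stood at -0.24 for single ECS over sham and -0.11 for 11 ECS over 10 ECS on the log2 scale. Scaling the arrays to equal medians shifted the median gene of those comparisons upwards by 0.29 and 0.14, and bounds against the floor by other amounts. All 8 granule cell (GC) markers on the array were above the floor in every group. So were 73.9 to 76.7% of all probe sets on each array, and all 9 astrocyte markers in every group. Passing the floor is therefore no measure of tissue identity.

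After a single ECS, 4 of the 9 genes were at least 2-fold higher than after sham and 0 were lower. They were Ptgs2, Pim1, Ier3 and, as a bound that just reached the limit, Socs3. The other 5, Zfp36, Zfp36l1, Zfp36l2, Nfkbia and Trib1, lay between -0.15 and 0.06 on the log2 scale, so that the name of early genes was met by 4 of the 9 at this time. Over all 10133 genes with a value, 1.2% were higher and 2.89% lower by this size. After the 11th ECS, 3 of the 9 were at least 2-fold higher than after 10 ECS, namely Ptgs2, Pim1 and Zfp36, and 0 were lower, beside 1.06% and 1.21% of 10046 genes. The median of the 9 genes was 0.06 for single ECS over sham and 0.87 for 11 ECS over 10 ECS, which is 0.30 and 0.98 above the median of all genes. All 9 stood above the median of all genes in both comparisons. The split over all genes moved with scaling, from 122 higher and 293 lower in signals as deposited to 216 higher and 91 lower with equal medians for single ECS over sham. For 11 ECS over 10 ECS it moved from 106 higher and 122 lower to 153 higher and 79 lower, and 5 of the 9 genes were then higher, with Ier3 and Socs3 added. By probe sets, 6 of 17 with a value passed this size upwards for the first ECS and 5 of 17 for the 11th.

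**Figure D1:**
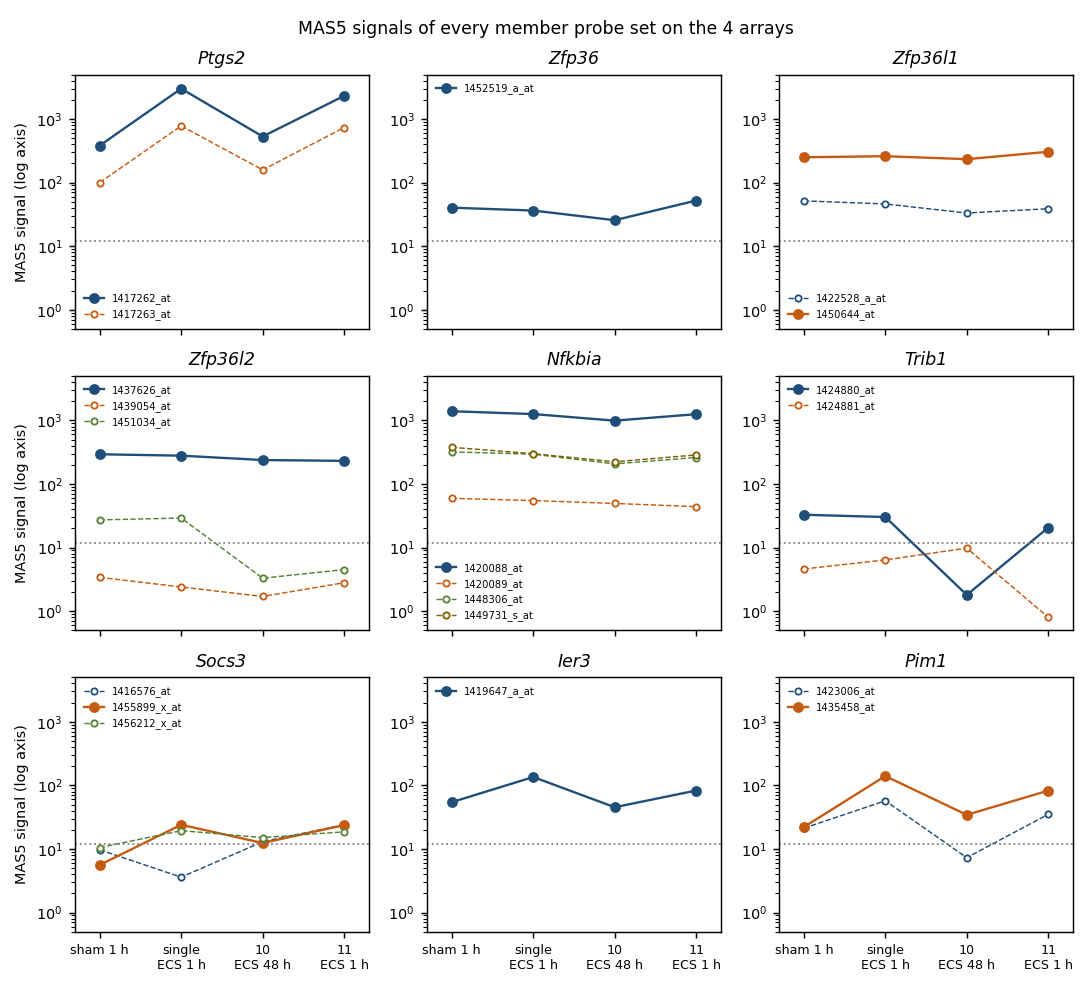
MAS5 signals of the 20 probe sets of the 9 genes (log axis) on the sham, single ECS, 10 ECS and 11 ECS arrays; filled circles and solid lines are the probe set that stands for the gene, open circles and dashed lines the others, and the dotted line is the floor of 12. Each point is 1 array, so there are no error bars; Ptgs2 stands at 3001.5 on the single ECS array and 381.4 on the sham array, while the brightest Nfkbia probe set stays between 990.4 and 1392.6.

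Ptgs2 had the highest ratio of the 9 genes in both responses and was bright enough to be far above the floor on all arrays. Its main probe set, 1417262_at, read 3001.5 after a single ECS and 381.4 after sham, a 7.87-fold difference (log2 2.98). It read 2310.4 after 11 ECS and 530.1 after 10 ECS, a 4.36-fold difference (log2 2.12). Both arrays taken 1 h after an ECS therefore stood well above both other arrays. The second probe set, 1417263_at, showed the same order, with 778.8 after a single ECS and 99.9 after sham (log2 2.96), and 732.3 after 11 ECS and 158.5 after 10 ECS (log2 2.21). The probe sets differed by far less than the ratios themselves. Counted from the highest ratio, Ptgs2 was number 15 of 10133 genes for the first ECS and number 18 of 10046 for the 11th.

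Ptgs2 was also 1.39-fold higher 48 h after 10 ECS than after sham (log2 0.47), and its second probe set gave 0.67. Both lie under the 2-fold size and more than 2 SD between probe sets of such signals above 0. With arrays scaled to equal medians the main value was 0.63. For 11 ECS over single ECS the log2 ratio was -0.38 in the main probe set and -0.09 in the second.

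The other prostaglandin genes stayed under the 2-fold size in both responses. Of 18 other genes of this list on the array, 13 had a value for single ECS over sham and 15 for 11 ECS over 10 ECS, and 0 were at least 2-fold higher or lower in either. Their medians lay 0.02 above and 0.01 below that of all genes. The highest ratio for the 11th ECS was that of Ptges, the prostaglandin E synthase that acts on the product of Ptgs2. It read 27.1 after 11 ECS and 14.8 after 10 ECS (log2 0.87, 1.83-fold), and 24.0 after a single ECS and 26.3 after sham (log2 -0.13). Tbxas1, the thromboxane synthase, read 29.2 after 11 ECS and 18.3 after 10 ECS (log2 0.67), and Hpgds, a prostaglandin D synthase, 16.5 after 11 ECS and 27.3 after 10 ECS (log2 -0.73). These 3 are dim, with signals under 48 on all arrays, and were named after their values were seen. Of the genes reaching a signal of 48 on at least 1 array, the ones named by rule were 2 receptors and a carrier. Tbxa2r, the thromboxane receptor, read 35.8 after a single ECS and 60.3 after sham (log2 -0.75), and 71.9 after 11 ECS and 81.2 after 10 ECS. It was the 1 gene of the list at least 2-fold apart between 11 ECS and single ECS (log2 1.01). Ptger4, a prostaglandin E2 receptor, read 33.9 after a single ECS and 55.8 after sham (log2 -0.72), and 37.9 after 11 ECS and 52.8 after 10 ECS. Slco2a1, the prostaglandin carrier, read 46.8 after a single ECS and 76.5 after sham (log2 -0.71), and 54.9 after 11 ECS and 71.6 after 10 ECS (log2 -0.38). Its 1 other probe set with a value gave -0.11 for the first ECS and -0.72 for the 11th.

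Pim1 had the second highest ratio of the 9 genes after a single ECS, from a low base. Its main probe set, 1435458_at, read 140.1 after a single ECS and 22.1 after sham, a 6.34-fold difference (log2 2.66), and 82.7 after 11 ECS and 34.4 after 10 ECS, a 2.40-fold difference (log2 1.27). The second probe set, 1423006_at, read 57.2 after a single ECS and 21.2 after sham, only 2.70-fold apart (log2 1.43). It read 35.1 after 11 ECS, at least 2.92-fold above the 10 ECS array, where it was at 7.3 and thus at the floor. Both probe sets were highest on the single ECS array and next highest on the 11 ECS array. They disagreed on the size of the first response by more than the SD between probe sets, and on the 10 ECS array, which lay above sham in the main probe set (log2 0.64) and below it in the other (log2 -0.82, a bound). With a floor of 50 the first response became 1.49 and the later one 0.73, which is under the 2-fold size.

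Ier3 was represented by 1 probe set, 1419647_a_at. It read 135.3 after a single ECS and 54.4 after sham, a 2.49-fold difference (log2 1.31). It read 83.0 after 11 ECS and 45.3 after 10 ECS, 1.83-fold apart (log2 0.87). The single ECS array was the highest and the 11 ECS array the next, as for Ptgs2 and Pim1, and the later response passed 2-fold only with other scalings (log2 1.01 with equal medians). Ier3 was number 76 of 10133 genes for the first ECS and number 154 of 10046 for the 11th.

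Other early stress genes were higher after ECS too. Of 10 other genes of the Ier family and related stress genes, 5 passed 2-fold upwards after a single ECS and 4 after the 11th, with 0 lower, and their medians lay 0.99 and 0.55 above that of all genes. Atf3, a stress-induced transcription factor, read 520.2 after a single ECS and 15.4 after sham (log2 5.08), and 392.5 after 11 ECS, at least 32.7-fold above the 10 ECS array, which was at the floor. Gadd45b, a stress sensor that takes part in DNA demethylation, read 1471.9 after a single ECS and 172.1 after sham (log2 3.10), and 613.1 after 11 ECS and 164.2 after 10 ECS (log2 1.90), with 0.83 and 4.15 for the first ECS in other probe sets. Ier5, an early response gene, read 1896.9 after a single ECS and 342.6 after sham (log2 2.47), and 1544.3 after 11 ECS and 522.4 after 10 ECS (log2 1.56). The remaining 2 that passed the size after a single ECS were Gadd45g (log2 2.31) and Ier2 (log2 1.07), named here after their values were seen, and Gadd45g was the fourth after the 11th ECS (log2 1.16).

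Socs3 was near the floor and can be read only roughly. Its main probe set, 1455899_x_at, read 24.0 after a single ECS and 5.6 after sham, which is at least 2-fold and lies exactly at the limit. It read 23.7 after 11 ECS and 12.4 after 10 ECS, a 1.91-fold difference (log2 0.93). The probe set 1456212_x_at read 19.4 after a single ECS and 10.5 after sham, at least 1.62-fold apart, and 18.6 after 11 ECS and 15.1 after 10 ECS (log2 0.30). The probe set 1416576_at did not follow, with 3.6 after a single ECS and 9.7 after sham, both at the floor, yet 24.0 after 11 ECS and 13.0 after 10 ECS (log2 0.88). Thus 2 of the 3 probe sets were above the floor on the single ECS array, and 3 of 3 on the 11 ECS array. With the median over probe sets, Socs3 fell under the size after a single ECS (log2 0.85), and with a floor of 50 it had no value.

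The other genes of JAK-STAT and gp130 signalling were largely level. Of 33 others on the array, 30 had a value, of which 1 was at least 2-fold higher and 0 lower in each of both responses. These were Socs4 after a single ECS, with 29.1 after a single ECS and 9.1 after sham (at least 2.42-fold), and Stat6 after the 11th, with 33.5 after 11 ECS and 16.3 after 10 ECS (log2 1.04). Both are dim and were picked out after their values were seen, and the other probe set of Stat6 gave -0.42. Of the 2 other Socs4 probe sets, only 1 had a value for the first ECS, which was -0.10. By the rule for named genes, Il6ra, the interleukin-6 receptor chain, read 61.9 after a single ECS and 95.7 after sham (log2 -0.63), and 40.1 after 10 ECS, 2.39-fold below sham, where its other probe set gave -0.26. Lifr, the receptor of leukaemia inhibitory factor, read 502.6 after a single ECS and 790.6 after sham (log2 -0.65), and Pias3, an inhibitor of STAT3, 104.2 after a single ECS and 153.1 after sham (log2 -0.56). For the same comparison, other probe sets gave -0.19 and -0.03 for Lifr, both near the floor, and -0.15 for Pias3.

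Nfkbia was bright and changed little. Its main probe set, 1420088_at, read 1257.0 after a single ECS and 1392.6 after sham (log2 -0.15), and 1251.7 after 11 ECS and 990.4 after 10 ECS (log2 0.34, 1.26-fold). The 10 ECS array was the lowest of the 4. The probe set 1448306_at read 293.9 after a single ECS and 319.7 after sham, and 260.7 after 11 ECS and 207.1 after 10 ECS (log2 0.33). The probe set 1449731_s_at read 299.3 after a single ECS and 377.1 after sham, and 286.3 after 11 ECS and 223.1 after 10 ECS (log2 0.36). These 3 probe sets thus gave 0.33 to 0.36 for the 11th ECS, about 2 SD between probe sets of such signals. The dimmest, 1420089_at, read 54.8 after a single ECS and 59.5 after sham, and 44.0 after 11 ECS and 49.4 after 10 ECS (log2 -0.17). For the first ECS the ratios of the 4 probe sets ran between -0.33 and -0.12, close to the median of all genes at -0.24. The sign of the main one turned with equal medians (log2 0.15).

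By main probe sets, no gene of the NF-κB list reached 2-fold in either response. Of 25 others on the array, 22 had a value for the first ECS and 20 for the 11th, with 0 higher and 0 lower, and their medians lay within 0.05 of that of all genes. Tab1, an adaptor of the TAK1 kinase, read 57.4 after a single ECS and 103.0 after sham (log2 -0.84). Nfkb2, which encodes the p100 precursor, read 30 after a single ECS and 50.1 after sham (log2 -0.74), and Traf6, a ubiquitin ligase, 70.2 after a single ECS and 99.3 after sham (log2 -0.50). For 11 ECS over 10 ECS their log2 ratios were 0.12 for Tab1, -0.20 for Nfkb2 and -0.27 for Traf6. A dim second probe set of Traf6 gave 0.02 for the first ECS and 0.49 for the 11th.

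The Zfp36 family showed no common response. Zfp36 itself, read by 1 dim probe set, 1452519_a_at, stood at 36.3 after a single ECS and 40.3 after sham (log2 -0.15). It stood at 52.2 after 11 ECS and 25.6 after 10 ECS, a 2.04-fold difference (log2 1.03). The 11 ECS array was thus the highest and the 10 ECS array the lowest, and the 10 ECS value stood at -0.65 against sham while the 11 ECS value stood at 0.52 against single ECS. With a floor of 50 the later ratio was 0.06, and at these signals the SD between probe sets was 0.42 to 0.47.

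Zfp36l1 was brighter and nearly level. The main probe set, 1450644_at, read 259.9 after a single ECS and 249.8 after sham (log2 0.06), and 304.8 after 11 ECS and 233.4 after 10 ECS (log2 0.39, 1.31-fold). Its other probe set, 1422528_a_at, read 46.1 after a single ECS and 51.5 after sham (log2 -0.16), and 38.8 after 11 ECS and 33.2 after 10 ECS (log2 0.22). Zfp36l2 had the ratio closest to 0 of the 9 genes for the 11th ECS. The main probe set, 1437626_at, read 278.6 after a single ECS and 293.0 after sham (log2 -0.07), and 230.7 after 11 ECS and 238.0 after 10 ECS (log2 -0.04). The probe set 1451034_at was above the floor at 29.1 after a single ECS and 27.2 after sham but at the floor in both repeated groups, with 4.5 after 11 ECS and 3.3 after 10 ECS. The third, 1439054_at, was at the floor on all 4 arrays.

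By main probe sets, the partners of the Zfp36 family stayed under the 2-fold size. Of 23 other AU-rich element binding and deadenylation genes, all above the floor on every array, 0 were at least 2-fold apart in either response, and their medians lay 0.04 and 0.05 above that of all genes. Cnot8, a deadenylase subunit, read 227.8 after a single ECS and 417.9 after sham (log2 -0.88), but its other probe set gave -0.21. Parn, a poly(A) ribonuclease, read 96.6 after a single ECS and 147.8 after sham (log2 -0.61), and 113.0 after 11 ECS and 122.4 after 10 ECS. Tob2, which recruits deadenylases, read 253.9 after 11 ECS and 181.8 after 10 ECS (log2 0.48), and 256.1 after a single ECS and 313.6 after sham (log2 -0.29). Its 3 other probe sets gave -0.12, 0.01 and 0.30 for the 11th ECS. For Celf1, picked out after its values were seen, 1 other probe set gave 1.55 for the 11th ECS, against -0.06 in the main one.

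Trib1 was dim on all arrays. The probe set 1424880_at read 30.2 after a single ECS and 32.8 after sham (log2 -0.12). It read 20.6 after 11 ECS and 1.8 after 10 ECS, where it was at the floor, so that the later ratio is at least 1.72-fold. The 10 ECS array was the only one at the floor. The other probe set, 1424881_at, was at the floor on all 4 arrays, and with a floor of 50 no value remained.

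Of the 14 other Tribbles and Pim partners, 13 had a value, with 2 at least 2-fold higher in each response and 0 lower. Myc, which cooperates with Pim kinases in tumours, read 82.0 after a single ECS and 38.9 after sham (log2 1.08), and 75.0 after 11 ECS and 36.3 after 10 ECS (log2 1.05). Pim3, the closest relative of Pim1 on this list, read 565.9 after a single ECS and 282.3 after sham (log2 1.00), and 418.3 after 11 ECS and 238.4 after 10 ECS (log2 0.81). Its other probe sets gave -0.04 and 0.63 for the first ECS, and for the 11th -1.07, a bound from a dim probe set, and 0.41. Cdkn1a, the cell cycle inhibitor p21 and a substrate of Pim kinases, read 212.4 after 11 ECS and 40.0 after 10 ECS (log2 2.41), and 160.6 after a single ECS and 90.9 after sham (log2 0.82). Its 10 ECS array lay 2.27-fold below sham. The other probe set of Cdkn1a gave 1.05 for the first ECS, past 2-fold, 1.95 for the 11th and -1.08 for 10 ECS over sham.

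**Figure D2:**
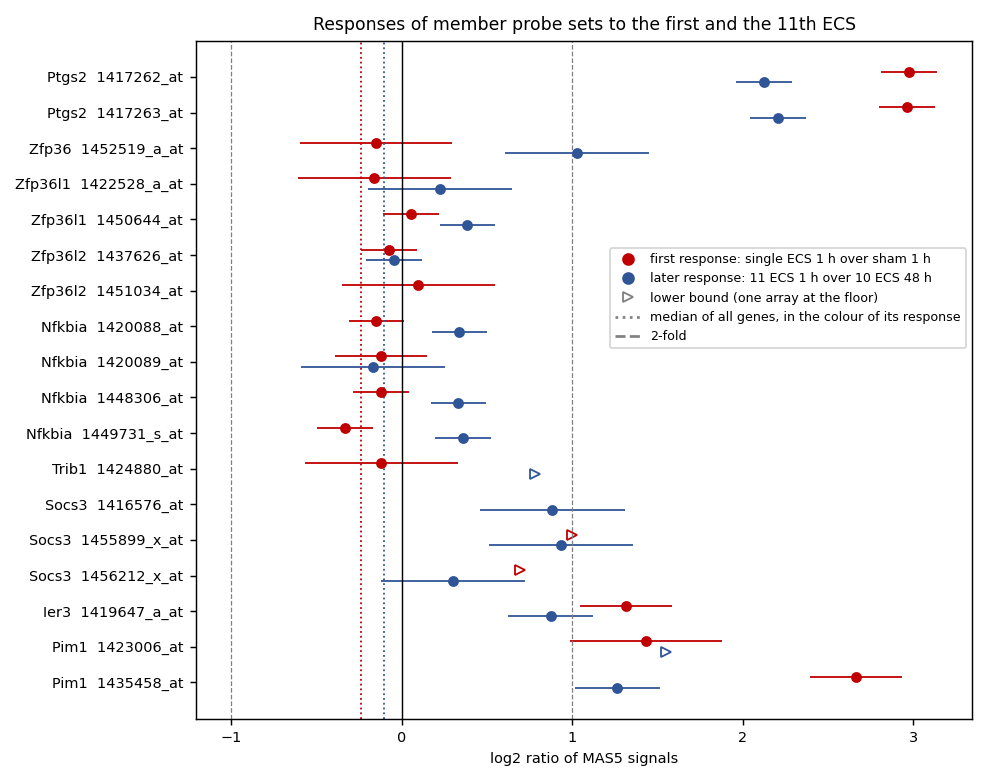
Log2 ratios of the 18 probe sets above the floor on at least 1 array, for single ECS over sham (red) and 11 ECS over 10 ECS (blue); horizontal bars are 1 SD between probe sets of the same gene at that signal, open triangles are lower bounds, dotted lines the medians of all genes and dashed lines 2-fold. Both probe sets of Ptgs2 and of Pim1 lie beyond 2-fold in both responses, while Nfkbia, Zfp36l1 and Zfp36l2 lie between -0.33 and 0.39.

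The genes that signal through these pathways were looked at as well. Of 32 inflammatory cytokine, chemokine and adhesion genes on the array, 14 were at the floor on all 4 arrays and only 7 above it on all 4. After a single ECS, 17 had a value, with 0 higher and 1 lower, and after the 11th ECS 15 had a value, with 0 higher and 0 lower. The 1 lower gene was Csf1, a growth factor of microglia, which read 56.5 after a single ECS and 152.1 after sham (log2 -1.43), with -0.83 and -1.11 in other probe sets. Cxcl12, a chemokine of the adult DG, read 432.9 after a single ECS and 641.3 after sham (log2 -0.57), and Ccl4, a macrophage chemokine, 40.9 after a single ECS and 50.7 after sham (log2 -0.31). All lists besides the Ier family had medians within 0.22 of that of all genes in both responses.

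**Figure D3:**
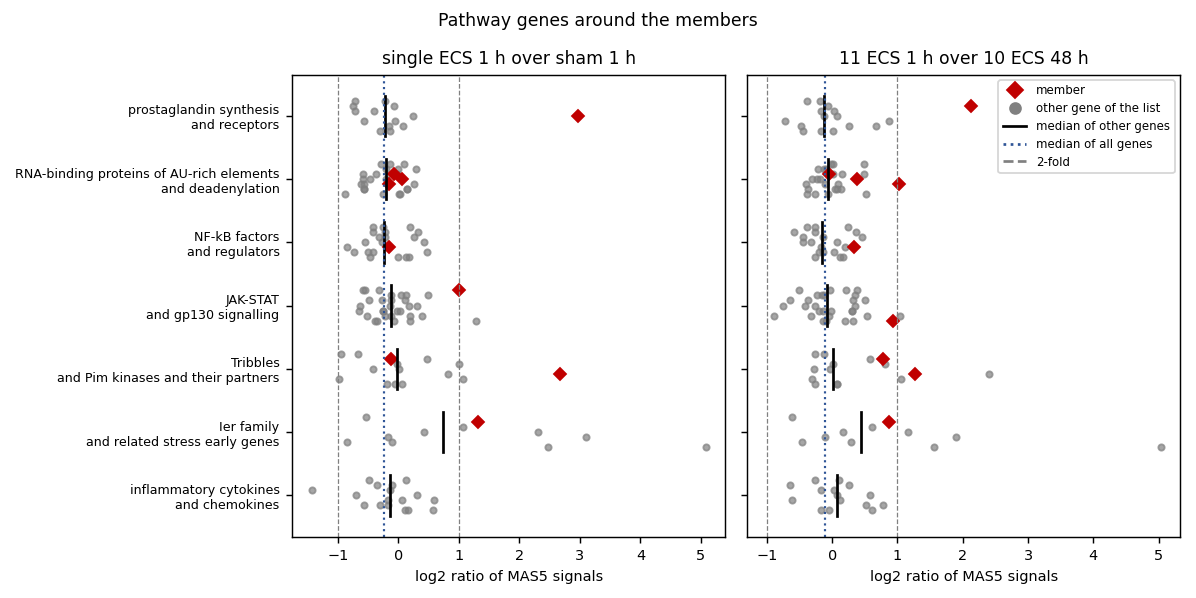
Log2 ratios of the genes of the 7 lists for single ECS over sham (left) and 11 ECS over 10 ECS (right); red diamonds are the 9 genes described here, grey circles the other genes of each list, black bars the median of those others, the dotted line the median of all genes and dashed lines 2-fold. Of the others, 0 of the prostaglandin, AU-rich element and NF-κB genes pass 2-fold in either panel, against 5 of 10 and 4 of 10 of the Ier and stress list.

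At 48 h after 10 ECS, the main probe sets of Ptgs2 (log2 0.47) and Pim1 (log2 0.64) were above sham. Those of the other genes were close to sham or below it. None of the 9 was at least 2-fold higher and 1 was lower, Trib1, which was at the floor after 10 ECS and at 32.8 after sham, at least 2.73-fold. Over all 10202 genes, 0.716% were higher and 1.22% lower (73 and 124 genes as deposited, 95 and 75 with equal medians). The median of the 9 genes was -0.26, which is 0.13 below that of all genes, with 4 genes above that median and 5 below. The main probe sets of Ptgs2 and Pim1 were above sham, the second of Pim1 was at the floor after 10 ECS (log2 -0.82, a bound), and the main values of the 6 genes besides these and Trib1 ran from -0.65 for Zfp36 and -0.49 for Nfkbia to -0.10 for Zfp36l1 and a bound of 0.05 for Socs3. All 4 Nfkbia probe sets were below sham, by ratios of -0.76 to -0.27. Trib1 had no value with a floor of 50.

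Between the arrays taken 1 h after an ECS, none of the 9 genes was at least 2-fold higher or lower after 11 ECS than after a single ECS, beside 0.832% and 0.782% of 9971 genes. Their median was -0.27, and 7 of 9 lay below the median of all genes. Pim1 was 1.69-fold lower (log2 -0.76), Ier3 1.63-fold lower (log2 -0.70) and Trib1 lower by a log2 ratio of -0.55, while Zfp36 was higher (log2 0.52). By probe sets, 1 of 18 was at least 2-fold higher, a Socs3 probe set, and 1 lower, a Zfp36l2 probe set, each against an array at the floor. This comparison shares its arrays with those above.

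The response to the 11th ECS was set against that to the first as the difference of both log2 ratios, which uses all 4 arrays. Over 9730 genes its median was 0.13. Pim1 had the most negative difference of the 9 genes (-1.40), lower than in all but 0.391% of genes, followed by Ptgs2 (-0.85, 1.74%) and Ier3 (-0.44, 6.17%). The shares are among all genes and not among induced ones. Pim1, Ptgs2 and Ier3 are the 3 genes with measured first responses past 2-fold. That response is subtracted in the difference, so picking genes by it favours negative values, and the part of this was not tested. In the main probe set of each the later response was the smaller one. The difference equals the log2 ratio of 11 ECS over single ECS less that of 10 ECS over sham. These 2 ratios were -0.38 and 0.47 for Ptgs2, -0.76 and 0.64 for Pim1, and -0.70 and -0.26 for Ier3. The second probe set of Ptgs2 had a difference of -0.75, from -0.09 and 0.67. The second probe set of Pim1 went the other way, with 1.43 for the first ECS and at least 1.55 for the 11th, a difference of at least 0.12. Zfp36 had a difference of 1.18, higher than in 98.5% of genes, and Nfkbia of 0.49, higher than in 86.0%. Both had a first ratio below 0 that turned above it with equal medians. Trib1 (0.90) and Socs3 (-0.07) involve a bound. Zfp36l1 (0.33) stood above 74.5% of genes and Zfp36l2 (0.03) above 34.3%. The median of the 9 genes was 0.03, with 4 below 0 and 5 above. A later response at least 2-fold smaller was found in 1 of the 9, Pim1, and at least 2-fold larger in 1, Zfp36, beside 1.12% and 2.54% of all genes. For Pim1 the difference was -0.76 with a floor of 50 and -0.64 with the median over probe sets, both under the size.

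**Figure D4:**
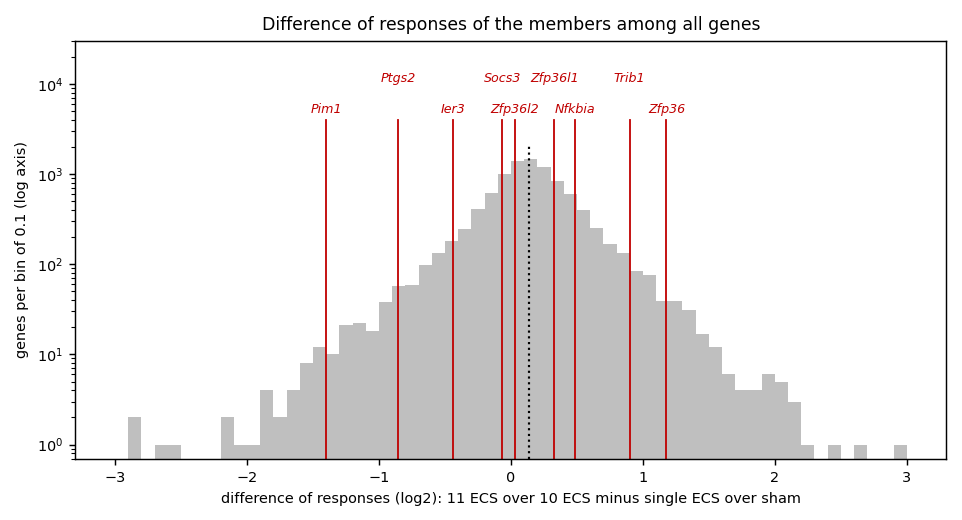
Number of genes (log axis) by difference of responses (the later log2 ratio, 11 ECS to 10 ECS, less the first, single ECS to sham), in bins of 0.1; red lines mark the 9 genes and the dotted line the median of all genes at 0.13. Pim1 at -1.40 and Ptgs2 at -0.85 lie in the lower tail, and Zfp36 at 1.18 in the upper one.

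Genes with the most similar pattern were sought for the 6 genes whose signals spanned at least 2-fold over the arrays. Likeness was the root mean square difference of log2 signals over the 4 arrays after centring each gene, as a description with 4 points a gene, among 7770 other genes (7771 for Trib1 and Socs3). Nearest to Ptgs2 were Frmd6 (0.102), a scaffold protein of Hippo signalling, Inhba (0.254), the activin subunit, and Sertad1 (0.268), a cell cycle coregulator. Frmd6 read 896.6 after a single ECS, 729.6 after 11 ECS, 173.3 after 10 ECS and 138.2 after sham. Nearest to Pim1 were Plk2 (0.119), an activity-induced kinase of synapses, Rgs2 (0.146), a regulator of G protein signalling, and Ier5 (0.166). Nearest to Ier3 were Med7 (0.0430), a Mediator subunit, Jun (0.0552), a subunit of AP-1, and Hspa14 (0.0601), an Hsp70 family protein. Jun read 2683.8 after a single ECS, 1586.6 after 11 ECS, 963.2 after 10 ECS and 1094.3 after sham. The neighbours of Ptgs2, Pim1 and Ier3 shared their order, highest after a single ECS and next highest after 11 ECS, which follows from the way they were chosen. Nearest to Zfp36 were Klf5 (0.0732), a Krüppel-like factor, Gjc1 (0.101), a connexin, and Sap30 (0.122), a subunit of the Sin3 histone deacetylase complex. Klf5 was as dim as Zfp36, with 50.2 after 11 ECS, 23.2 after 10 ECS, 32.5 after a single ECS and 33.6 after sham. For Socs3 and Trib1, set to the floor where they were at or below it, the nearest were Epm2aip1 (0.0395), the clock gene Per2 (0.0563) and the autophagy gene Atg101 (0.0574) for Socs3, and Mtf1 (0.144), Tcf15 (0.170) and Vars (0.193) for Trib1. Per2 read 488.7 after a single ECS, 436.1 after 11 ECS, 235.8 after 10 ECS and 238.3 after sham.

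Since several of these genes are also expressed by glia, vessels and blood cells, markers of those cells were summed on each array. In bulk tissue, fewer cells of a type and less RNA per cell cannot be told apart. The 14 microglia and macrophage markers summed to 2585.1 after a single ECS, 2769.8 after 11 ECS, 2618.1 after 10 ECS and 2777.5 after sham, and 0 of them were at least 2-fold apart in either response. Of 6 blood and neutrophil markers, Alas2, Hba-a1, S100a8, S100a9 and Camp were at the floor on all arrays, and the sums ran between 28.7 after 11 ECS and 43.8 after a single ECS. The 11 endothelial and mural markers, of which Tie1 was at the floor on all arrays, summed to between 1585.2 after a single ECS and 1798.5 after sham, and the 9 astrocyte markers to between 11503.6 after a single ECS and 13176.7 after sham. The 4 choroid plexus and ependyma markers summed to 280.8 after a single ECS, against 140.5 after 11 ECS, 162.3 after 10 ECS and 174.1 after sham, and 1 of them was at least 2-fold higher. Their median log2 ratio for single ECS over sham was -0.25, close to that of all genes, and 3 of the 4 were above the floor after a single ECS, against 4 of 4 after sham. Ptgs2, Pim1 and Ier3 were also highest on that array, and the part of this difference in their values was not tested. The list of GC markers held Calb1, Dsp and Tdo2, whose mRNA the study found reduced in the DG after repeated ECS. Its sum is therefore no measure of cell number. The 8 GC markers summed to 6595.6 after a single ECS, 4181.1 after 11 ECS, 4872.7 after 10 ECS and 7859.7 after sham, lower on each next array in the order sham, single ECS, 10 ECS and 11 ECS. The main probe set of Zfp36l2 was the 1 of the 9 with that order, and the part of the markers' order in it was not tested.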

How the data were processed

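The authors amplified 100 ng of pooled RNA per group, hybridised 1 array each and computed MAS5 signals. The deposited values are these intensity values per probe set on a linear scale. How arrays were scaled to each other was not given in the sources used here. MAS5 is named in the submitters' processing notes with no version. The series' own detection and change calls were not used here. Groups follow the titles. In 3 samples the description field names another treatment than the title, source and treatment fields.

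Gene symbols came from the platform's annotation: of 22626 probe sets (64 controls apart), 20380 had 1 symbol, 691 several and 1555 none. Promoters came from RefSeq. Ratios, counts past 2-fold, list medians and the difference of responses were computed with Python 3.11.15, numpy 2.4.6 and pandas 2.3.3, and the ratios were tested on simulated data. The floor was 12. The precision is limited by the number of arrays, 1 per group. The 9 genes, the lists and the alternatives (a floor of 50, median scaling, quantile normalization, both floor and scaling, the median over probe sets, dim genes left out, a 1.5-fold limit) were chosen with earlier results of these data known. Named genes were the 9, up to 3 others per list with a signal of at least 48 and the ratios farthest from 0, and the 3 genes most like each of the 9 that spanned 2-fold. Genes named outside this rule are said to be so.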

Additional observations from a re-analysis of the deposited data

Results flagged for a closer look

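By main probe sets, Zfp36 and Nfkbia had ratios of opposite sign for the first and the 11th ECS. For Zfp36 the log2 ratio was 1.03 for 11 ECS over 10 ECS and -0.15 for single ECS over sham, and for Nfkbia it was 0.34 and -0.15. The difference between the responses was not tested, because each group had 1 array. With arrays scaled to equal medians both first responses were above 0, at 0.15 for each gene. As deposited, both lay 0.09 above the median of all genes. The later ratio of Zfp36 was 0.06 with a floor of 50. The dimmest Nfkbia probe set was below 0 in both responses (log2 -0.12 for the first and -0.17 for the 11th).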

How the results depend on the processing

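No paired analysis was possible because each group had 1 array, and for the same reason no array was left out. Of the values of single genes, 197 moved by less than the spread between probe sets and 29 moved by more. The 197 include 30 with dim genes left out, a setting that cannot change the ratio of a gene it keeps. They also include medians over probe sets for genes with 1 probe set, which cannot move either. Genes left without a value by a setting are not counted for it. Of the counts and medians, 82 stayed alike and 42 moved. No called value changed sign.

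The median of the 9 genes above that of all genes, 0.30 for single ECS over sham, was 0.92 with a floor of 50, 0.90 with that floor and median scaling and 0.93 with dim genes left out, settings that leave 6 of the 9 genes with a value. For 11 ECS over 10 ECS it was 0.98 and became 0.48 with a floor of 50 and 0.49 with that floor and median scaling. Of the 9 genes, the number at least 2-fold higher in 11 ECS over 10 ECS was 1 with either floor of 50, 5 with median scaling or quantile normalization and 6 at 1.5-fold. In 10 ECS over sham, 1 was higher at 1.5-fold, and 0 were lower with either floor of 50 or with dim genes left out.

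Counts over all genes moved with scaling and floor. For single ECS over sham, 216 were higher with median scaling and 190 with quantile normalization, and 91 and 102 lower, against 81 lower with a floor of 50, 12 with that floor and median scaling and 117 without dim genes. For 11 ECS over 10 ECS, 59 were higher with a floor of 50 and 65 without dim genes, and 12, 79, 78, 8 and 23 lower with a floor of 50, median scaling, quantile normalization, floor and scaling, and without dim genes. For 10 ECS over sham, 15, 21 and 17 were higher with a floor of 50, floor and scaling, and without dim genes, and 28, 75, 78, 12 and 32 lower in the 5 settings above. For 11 ECS over single ECS, 19, 18 and 23 were higher and 31, 31 and 38 lower with a floor of 50, floor and scaling, and without dim genes. Causes were not tested.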
